A study of Triticum aestivum and Triticum monococcum subsp. aegilopoides x Triticum urartu with 8 samples.

Results

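A set of 281 array probes was selected as brighter by a factor of 8 or more, on the processed signal as deposited, in the first leaf of a diploid wheat hybrid with type IV necrosis than in its diploid wild type, and as different by less than a factor of 2 in type I necrosis of hexaploid wheat. For 114 of them the wild type signal was not above background. The size of their difference is then known only as a lower bound, which holds for the processed signal only. The signal of each probe was taken as the log2 intensity minus the 75th percentile of its array, called its level here, so that a level of 0 is the brightness that 25% of transcript probes exceed. A member had a type IV difference (mean level in type IV necrosis minus mean level in diploid wild type) of 3 or more and a type I difference (type I necrosis minus hexaploid wild type) between -1 and 1. It was also well above background, by the scanner software's own flag, on both type IV arrays and on all 4 hexaploid arrays, and carried no outlier flag on any array. Of 37826 transcript probes, 22110 met the conditions on flags, and the 281 members were 1.27% of these. The members were thus chosen by both differences and by the flags, so these values are given below as descriptions without a test.

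Hybrid necrosis is the premature yellowing and death of leaves in hybrids whose parents are both healthy. In wheat it appears when complementary genes from the parents meet in the hybrid, and in many plants such necrosis resembles an immune response running without a pathogen. The type I and type IV names mark distinct forms of the syndrome, which in these data were carried by wheats of different ploidy.

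The comparison used 4 groups of 2 arrays each, all from the first leaf of 1-week-old seedlings grown at 23 °C without treatment. The hexaploid wild type and the type I necrosis samples were hybrids of Triticum aestivum, common wheat. The diploid wild type and the type IV necrosis samples were hybrids of Triticum monococcum subsp. aegilopoides with Triticum urartu, both wild diploid wheats. The design text speaks of 2 independent experiments, but the labels do not say whether the arrays came from separate plants, so the spread between arrays may be partly technical. Wild type and necrosis were different hybrid plants, so that necrosis and any other genetic difference between them cannot be told apart. In whole leaves, a change in the number of cells of a type and a change in RNA per cell cannot be told apart either.

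The hexaploid arrays shared 1 slide and the diploid arrays another, so wheat and slide cannot be told apart, and within each slide wild type and necrosis sat at different positions. Between 23626 and 28765 transcript probes per array were well above background, more on the hexaploid arrays (27437 to 28765) than on the diploid arrays (23626 to 24556). In the diploid wheats the 75th percentile was 591.1 and 558.3 intensity units in wild type, against 1206.8 and 1509.4 in type IV necrosis. Relative to the labelled spike-in RNA it was higher by 1.35 (log2) in type IV necrosis and by 0.40 in type I necrosis than in the respective wild type. All levels are therefore relative to the bright part of the same array.

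Nearly all members carry names of assembled sequence contigs or of clones beginning with wh or rwh, and 6 carry other names. No probe name matched a RefSeq symbol or synonym of the reference table, so none of the members is given a gene, a function or a cell type here, and no leaf marker could be checked. The deposited files hold 6 probes named after cold or dehydration genes, of which 1 met the flag conditions and 0 were members.

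An area of the second diploid wild type array was dim, and it touched some members. Within rows 175 to 220 and columns 63 to 85, 283 transcript spots lay in neighbourhoods whose median fell more than 0.5 below the first wild type array, and these spots differed by a median of -1.63 against 0.02 elsewhere. The same search gave between 0 and 5 spots in every other pair of replicate arrays. The dim neighbourhoods held 13 members (4.63%) against 0.624% of all probes meeting the flags. Counted spot by spot, 14 members, 11 of them in these neighbourhoods, were lower on wild type array 2 than on array 1 by more than 2 (2.04 to 9.65), and 0 were lower on array 1 by that much.

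The probe MUG008E11R990628 shows what this did. It read 2.36 and -7.28 in diploid wild type, against 2.46 and 2.65 in type IV necrosis, so that its type IV difference of 5.02 became 0.19 against wild type array 1 alone. For wheat0130Contig605 the wild type levels were 0.91 and -7.27 and the type IV levels 0.59 and 0.57. Both type IV arrays of this probe lay below the first wild type array. The probe wheat0130Contig2544 kept a difference of 5.52 against wild type array 1 alone, with levels of -0.78 and -3.33 in wild type and 4.34 and 5.15 in type IV necrosis. Against array 1 alone, 12 of the 14 fell under 3 and 8 under 1. Leaving out every member of either kind removed 16 and left 265, whose median type IV difference was 3.76, as it was for all 281. Counts below include these 16, called the doubted spots, unless said otherwise.

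Across all 281 members the median type IV difference was 3.76 on the processed signal, with quartiles of 3.30 and 4.64 and a highest value of 7.92. The 114 members at background in diploid wild type enter these values at their dim signal as processed, and their median lower bound was 2.96. The difference lay between 3 and 4 in 169 members, between 4 and 5 in 60, between 5 and 6 in 32 and above 6 in 20. Over all 22110 probes meeting the flags the median difference was 0.00. A rise of at least 3 was present in 1.83% of these probes (405), and the type I bound kept 69.4% of the 405, while 88.4% of all probes meeting the flags lay within that bound.

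The array medians of the members show where the set stood in each group. On the hexaploid arrays the medians were -1.50 and -1.53 in wild type and -1.66 and -1.65 in type I necrosis. On the diploid arrays they were -3.98 and -4.24 in wild type and -0.10 and -0.02 in type IV necrosis. In level the set was low in diploid wild type, intermediate in both hexaploid groups and highest in type IV necrosis. The rule asks for much of this order, by the type IV difference and the bound on type I. Where the hexaploid groups stand beside the diploid groups rests on the scaling, as the wheats were on separate slides. All probes meeting the flags had medians between -0.71 and -0.57 on these 8 arrays.

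The type IV arrays both exceeded both diploid wild type arrays in 279 members, where 42.1% of all probes meeting the flags had that order. The limma fit with adjusted p below 0.05 called 273 members higher in type IV, against 33.9% of all probes it tested. Both counts follow from the choice of members and are given for completeness. The 8 members that were not called were all among those lower on wild type array 2 by more than 2. The 2 members whose arrays overlapped were wheat0130Contig605 and rwhe7o03.

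The members were of 2 kinds in the diploid wild type. On both diploid wild type arrays 150 members (53.4%) were well above background, and 114 (40.6%) were well above background on neither. The remaining 17 (6.05%) passed the flag on 1 array. Without the doubted spots these numbers were 146, 112 and 7. Among all probes meeting the flags only 2.71% were at background on both diploid wild type arrays. A share above that follows from asking for a large difference, and 49.5% of the 323 probes with the opposite pattern (lower by 3 or more in type IV, within 1 in type I) were at background on both type IV arrays.

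Members at background in diploid wild type stayed modest in type IV necrosis. Their median level was -6.96 in diploid wild type, against -2.16 in type IV necrosis, and 9 of 114 exceeded a level of 0. The members above background in diploid wild type went from a median of -1.93 to 1.98. Of these, 122 of 150 exceeded 0, or 119 of 146 without the doubted spots. The fitted difference was nevertheless larger in the first kind (median 4.44) than in the second (3.52). A wild type level below the flag is only an upper limit, so for the first kind a bound was computed against the dimmest signal that passed the flag on each wild type array (-5.07 and -5.17) or the probe's own level where that was higher, and is written as at least so many fold. By this bound 54 of the 114 were at least 8-fold higher, 60 were not shown to reach that size, and the bounds ran from 1.78-fold to 79.7-fold with a median of 2.96 (log2).

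The size for members at background also moved with the normexp setting. That setting changes the background correction and adds an offset of 50 intensity units to every spot before the log. An offset narrows differences from dim spots, and its share in the change was not tested. With the normexp correction the members at background had a median difference of 1.11 and 11 of 114 still met the rule, while those above background had 3.13 and 88 of 150 met it. With spike-in scaling the medians were 5.80 and 4.88. The normexp median of 1.11 lay under the median lower bound of 2.96, so the bounds hold only for the processed signal as scaled here.

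The 10 largest type IV differences on the processed signal all belonged to probes at background in diploid wild type, so their order is not a measured one. By the lower bound MUGEST2003_23lib_Contig20249_p_692 stood first with 79.7-fold, and the bounds of the other 9 lay below the measured 73.7-fold of wheat0130Contig963. The probe rwhca19b07_790 had levels of -7.37 and -7.50 in diploid wild type, against 0.59 and 0.37 in type IV necrosis. That was at least 48.6-fold higher, and its hexaploid levels were -1.77 and -1.67 in wild type and -1.15 and -1.26 in type I necrosis. This transcript was thus measurable in both hexaploid groups and below the flag only in the diploid wild type.

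Hexaploid levels were higher for wheat0130Contig7895. It stood at 1.22 and 1.29 in hexaploid wild type and at 1.68 and 1.66 in type I necrosis. In diploid wheat it read -7.03 and -7.28 in wild type, against 0.55 and 0.36 in type IV necrosis, at least 47.8-fold higher. Its type IV level lay below every hexaploid level. MUGEST2003_23lib_Contig17989_541 behaved likewise, with hexaploid levels of 1.08, 1.02, 0.51 and 0.48 and diploid levels of -7.26 and -7.44 in wild type and 0.31 and 0.06 in type IV necrosis. In these probes the diploid wild type was the low group, and the type IV hybrid did not exceed the hexaploid wild type in level. That order between the wheats, on separate slides, rests on the scaling.

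In other leading members type IV necrosis was the high group on the levels used here as well. MUGEST2003_23lib_Contig20249_p_692 was near the lower end in all other arrays, with -4.70 and -4.67 in hexaploid wild type, -5.15 and -5.65 in type I necrosis and -5.64 and -6.15 in diploid wild type. On the type IV arrays it stood at 0.88 and 1.51, at least 79.7-fold higher than in diploid wild type, the highest bound of the 114. The probe whfl_allContig102 (0.36 and 0.35 in type IV necrosis, -7.13 and -7.36 in diploid wild type, bound 44.6-fold) had hexaploid levels between -3.31 and -2.80. The probe rwhf7g09 was at 0.69 and 0.65 in type IV necrosis and at -6.62 and -7.20 in diploid wild type, a bound of 55.4-fold, with hexaploid levels between -2.39 and -1.80. For these 3 probes both type IV arrays exceeded all other arrays.

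The remaining 4 of the 10 had bounds between 30.9-fold (wheat0130Contig11330) and 37.3-fold (wheat0130Contig1140), with 31.7-fold for rwhoh9f12 and 31.8-fold for MUGEST2003_23lib_Contig7892_p_795. The type IV arrays were least alike in the last pair: rwhoh9f12 read -0.56 and 0.29, and MUGEST2003_23lib_Contig7892_p_795 read 0.32 and -0.58. The 10 widest gaps between the lower type IV array and the higher wild type array belonged to 9 of the same probes and to MUGEST2003_23lib_Contig2684_1111, with -7.08 and -6.99 in wild type and -0.16 and -0.40 in type IV necrosis.

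The members brightest in type IV necrosis were measurable on all 8 arrays. The probe rwhkp19e12_227 had levels of 4.41 and 4.37 in diploid wild type, against 7.34 and 7.49 in type IV necrosis, an 8.18-fold difference. Its hexaploid levels lay between 3.52 and 3.92. It was therefore already bright in wild type and close to the inclusion threshold.

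For wheat0130Contig14188 the levels were 3.76 and 3.76 in diploid wild type, against 7.14 and 7.58 in type IV necrosis, a 12.1-fold difference. In hexaploid wheat it moved the other way, from 3.09 and 3.10 in wild type to 2.43 and 2.51 in type I necrosis, a difference of -0.62. The probe wheat0130Contig13358 showed the same pair of directions. It went from 2.39 and 2.48 to 6.40 and 6.64 in the diploid arrays, a 17.0-fold difference, and by -0.56 in the hexaploid arrays, from 4.60 and 4.49 in wild type to 3.96 and 4.0 in type I necrosis. In both probes the type I arrays lay below their wild type arrays without overlap, where 87.3% of all probes meeting the flags had type I arrays that did not overlap those of wild type.

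The other 2 of the 5 brightest had type I differences on the positive side. The probe wheat0130Contig15137 stood at 2.79 and 2.68 in diploid wild type, against 5.86 and 6.12 in type IV necrosis (9.53-fold), and wheat0130Contig503 at 2.26 and 2.17 and at 5.37 and 5.96 (10.9-fold). Their type I differences were 0.09 and 0.45.

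Among members above background in diploid wild type and outside the doubted spots, the largest differences were picked out after the values were seen. The probe wheat0130Contig963 stood at -3.61 and -3.54 in diploid wild type, against 2.36 and 2.90 in type IV necrosis, a 73.7-fold difference measured on both sides. Its type I difference of 0.96 was just inside the bound of 1. The probe whsh_allContig778 went from -2.97 and -3.17 to 1.87 and 2.60, a difference of 5.31, with a type I difference of 0.04. Thus a large measured difference occurred both with a type I difference at the bound and with one near 0.

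The 2 type IV arrays differed from each other more in some members than in others. The median size of the difference between replicate arrays was 0.39 for members in type IV necrosis against 0.22 for all probes meeting the flags, and 0.08 and 0.05 for members in hexaploid wild type and type I necrosis. In members above background in diploid wild type, type IV array 2 was higher than array 1 by a median of 0.37. It was higher in 115 of 150 (76.7%), or in 111 of 146 without the doubted spots. In members at background in diploid wild type the median was 0.00. Array 2 was higher in 57 of these 114, or in 57 of 112 without the doubted spots.

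Over all probes meeting the flags, array 2 was higher in 53.2% of the 21064 above background in diploid wild type and in 63.5% of the 600 at background. Among probes above background on all 8 arrays, array 2 minus array 1 had a median of 0.26 in the 1836 with a type IV difference of 1 to 2, 0.41 in the 461 between 2 and 3, and 0.40 in the 234 at 3 or more. Array 2 was higher in 79.2%, 82.4% and 72.6% of these in turn, so the 76.7% of the members was near that of other raised probes. The 234 include the 150 members above background in diploid wild type. The median was 0.05 between -1 and 1 and -0.59 in the 464 at -3 or less. In these bins the median of array 2 thus lay further from wild type than that of array 1 in both directions. The 15 probes at background in diploid wild type that were higher by 1 or more in type I as well had a median of 0.64, with array 2 higher in 14, and the 12 that were lower by 1 or more in type I had a median of -0.49, with array 2 higher in 3. These are probes of a single pair of arrays and not replicates, and the contrast between the kinds was not tested. Under 5 other scalings or corrections than spike-in scaling the medians were 0.35 to 0.44 and -0.03 to 0.07, and under spike-in scaling 0.92 and 0.55.

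In type I necrosis the members' differences had a median of 0.07 with quartiles of -0.31 and 0.45, against a median of 0.08 for all probes meeting the flags. The difference was above 0 in 153 members and below 0 in 128. It lay within 0.5 in 175 members (62.3%), compared with 76.6% of all probes within the bound of 1. The fit called 82 members in type I, 48 higher and 34 lower, where 42.5% of all tested probes were called, 22.9% higher and 19.6% lower. The rule bounded this difference in the members and not in all tested probes, so these shares are not on a like basis. Nothing is read from the count of 82. By the rule itself, the name of a set unmoved in type I holds only within the bound of a factor of 2.

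The count of 82 moved with the arrays in the fit, and so did the share of all tested probes called. Without hexaploid wild type replicate 1 or 2 it was 24 and 27 members (24.7% and 25.1% of all tested probes), and without type I replicate 1 or 2 it was 21 and 17 (21.3% and 21.7%). Without type IV replicate 1 or 2 it was 151 both times (58.3% and 58.2%), and with the hexaploid arrays fitted alone it was 209 (67.8%). The sign also moved with the scaling: with spike-in scaling 223 members were above 0 and 58 below, and with normexp 137 and 144.

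The position of the bounds was as follows. The members just inside a type IV difference of 3 were wheat0130Contig4539 (3.002), wheat0130Contig8790 (3.003), wheat0130Contig4078 (3.008), rwhei6h01_663 (3.008) and whrd4o18_228 (3.013). Just outside were whec3o17_411 (2.988), wheat0130Contig8020 (2.982), wheat0130Contig14693_2 (2.981), rwhyf15f20 (2.971) and wheat0130Contig14642 (2.961). No break in the values separated the members from their neighbours. At the type I bounds wheat0130Contig16282 (0.983) and wheat0130Contig4885 (-0.998) were the nearest inside, and MUG013A01R990617 (1.021) and wh30m21 (-1.016) the nearest outside. The spot of MUG013A01R990617 (row 196, column 76) lay within the rows and columns of the dim area. Its level on the second diploid wild type array minus that on the first was -9.29. Its type IV difference of 5.64 includes that dim spot and is therefore in doubt.

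Some members had a second probe of the same contig or clone name on the array. This applied to 41 members under 37 names, and 33 of the partner probes were not members. The files do not say whether such probes read the same transcript, nor what a leading r or the letters p and m in a name stand for. Of the 33 partners, 22 were at background on both type IV arrays, 12 of them on all 8 arrays, and 9 were above background on both type IV arrays, of which 6 had a type IV difference of 1 or more.

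In 4 clone names both probes were members. The probes rwhdl18a16 and whdl18a16 had type IV differences of 3.10 and 3.55, both from levels measurable on all 8 arrays. The pair rwhoh9f12 and whoh9f12 had 7.22 and 3.89, whr11f11 and rwhr11f11 had 5.44 and 3.30, and rwhsd16l21_315 and whsd16l21_633 had 5.30 and 3.52. A further partner, whr13a13, missed the threshold with 2.79 beside 4.43 for rwhr13a13, and all 8 arrays measured both. In the last 3 pairs at least 1 probe was not above background on both wild type arrays, so the sizes cannot be set against each other: the bounds were 4.99 and 1.97, 3.25 and 2.77, and 5.30 and 1.52 in the same order. Both probes of each of these names differed in the same direction.

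Other pairs moved in opposite directions. The member rwhoh11a11 stood at -7.03 and -7.28 in diploid wild type, against -2.46 and -2.45 in type IV necrosis, while whoh11a11 stood at -2.19 and -2.26 in wild type and -7.49 and -7.38 in type IV necrosis. Each of the pair was measurable in only 1 of the diploid groups, and both were measurable on all hexaploid arrays, at -2.87 and -2.89 and at -2.95 and -2.98 in wild type. The member rwhh8g14 read -7.31 and -7.47 in wild type and -4.79 and -3.32 in type IV necrosis, against -2.40 and -2.91 and -6.49 and -5.65 for whh8g14. In all, 4 partners were above background on both diploid wild type arrays and on neither type IV array, the other two being whh16o21 and wheat0130Contig4885_2. The 10 names with p and m probes had 8 p members and 2 m members, and 0 of their partners were above background on both type IV arrays.

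By name, contigs of the wheat0130 assembly made up 134 members (47.7%, against 42.1% of all probes meeting the flags). Contigs of the MUGEST2003 assembly made up 74 (26.3% against 17.3%), clones with a leading r 34 (12.1% against 11.5%), and clones without it 22 (7.83% against 15.9%). These shares are descriptions of how the array's names were distributed and were not tested.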

How the data were processed

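Total RNA of 8 leaf samples was labelled with Cy3 and hybridised to 1-colour Agilent arrays, per the labels. The deposited scanner files hold background-subtracted intensity per spot, made with Feature Extraction 10.10.1.1 per the file headers (9.5 in the submitters' processing notes). The authors' deposited value table held the same intensity times 1 factor per array (0.9255 to 3.1204). Its column medians were 188.8 to 338.1.

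Levels were log2 processed signal minus the 75th percentile over transcript spots, with 1 spot per probe. The limma fit (version 3.58.1, R 4.3.3) used 4 groups with a shared spread (4 residual and 1.73 prior degrees of freedom) and Benjamini-Hochberg adjustment over all probes passing the background flag on every array of either compared group, at a threshold of 0.05. With 2 arrays a group, their number limits the precision. Normexp (offset 50) used the median spot signal, because the files hold no mean signal. Spike-in scaling used 159 spots measured on all arrays.

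The members and lists were chosen with earlier results of these data known. Named probes were the 10 largest differences, the 10 widest gaps, the 5 highest type IV levels, those nearest the bounds and those sharing a name; others are said to have been chosen after their values were seen. Pathway and marker lists could not be applied. Alternatives were other scalings, normexp, the authors' table, other thresholds and flags, arrays left out, each wheat alone and a replicate block; leaving out doubted spots was added after seeing the data.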

Additional observations from a re-analysis of the deposited data

Results flagged for a closer look

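In 111 members both type I arrays lay below and both type IV arrays above their own wild type arrays (8.18% of all probes meeting the flags had that order). In 134 both necroses lay above wild type (29.6% of all). These shares are not on a like basis, because type IV lay above wild type in 279 of the 281 members but in 42.1% of all. The difference between the 2 necroses was not tested, because it chose the members. In place of 111 the number was 102 to 106 with median centring, quantile normalization or the authors' table. It was 120 with normexp and 15 with spike-in scaling, where 157 lay above in both. Type IV values of the first 3 probes named next rest on wild type signals at background. They are measured only as lower bounds of 5.48, 5.31 and 6.32 on the processed signal. Among the leading members this order was shown by whfl_allContig102 (7.60 in type IV, -0.41 in type I), MUGEST2003_23lib_Contig17989_541 (7.54 and -0.55), MUGEST2003_23lib_Contig20249_p_692 (7.09 and -0.71), wheat0130Contig14188 (3.60 and -0.62) and wheat0130Contig13358 (4.09 and -0.56). With spike-in scaling their type I differences were -0.00, -0.15, -0.31, -0.22 and -0.16.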

How the results depend on the processing

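The number of members, 281, became 893 with spike-in scaling, 112 with normexp, 150 when diploid wild type also had to be above background, 717 and 112 at thresholds of 2 and 4, and 175 at a type I bound of 0.5. It was 270 to 339 with 1 array left out. Of the 281 members, 236 kept the rule with spike-in scaling, 102 with normexp and 252 to 280 under the other scalings. Their median type IV difference of 3.76 was 3.96 with median centring, 3.96 with quantile normalization over 8 arrays, 3.99 within each wheat, 5.12 with spike-in scaling, 2.43 with normexp and 3.71 to 3.95 with 1 array left out. The median type I difference of 0.07 was 0.13, 0.12, 0.12, 0.47 and -0.02 in that order, 0.10 with the authors' table, 0.05 without doubted spots and 0.06 to 0.09 with 1 array left out. Members at background in diploid wild type numbered 119 to 126 with 1 array left out. With normexp 6 members had no type IV difference above 0, among them the named probe rwhei6h01_663 (-0.04), and the cause was not tested. Members called in type IV numbered 269 to 281 with 1 array left out (64.9% to 77.8% of all tested probes, either direction). Members called in type I numbered 35 with spike-in scaling (16.7% of all tested), 17 to 151 with 1 array left out (21.3% to 58.3%) and 209 with each wheat alone (67.8%). A replicate block gave 271 in type IV (67.3%) and 58 in type I (31.4%). Deviations of same-numbered arrays correlated at -0.086 in hexaploid and -0.007 in diploid wheat. With 2 arrays a group this does not settle whether the replicate numbers pair the arrays, and the labels do not say. Signal near background limits the size of the difference for 114 members.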
